A study of Mus musculus with 27 samples.

Results

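The 10 genes described here are ligands, receptors, a carrier and a target of the TGF-beta and activin pathway. They were chosen by name, with earlier results of these data known, from the 23279 genes of the expression table. They are the TGF-beta ligands Tgfb1, Tgfb2 and Tgfb3, the activin subunits Inhba and Inhbb, the receptors Tgfbr1, Tgfbr2 and Tgfbr3, the latent TGF-beta binding protein Ltbp1 and the TGF-beta induced matrix protein Tgfbi. All 10 passed the filter on low values. On mm10 the ligand genes lie on chromosomes 7 (Tgfb1, 25687002 to 25705077), 1 (Tgfb2, 186622787 to 186709697, and Inhbb, 119415463 to 119422248), 12 (Tgfb3, 86056743 to 86079041) and 13 (Inhba, 16004256 to 16031609), and all 10 are protein-coding. The question the comparisons address is how mesenchyme of limb bud-like tissue grown from mouse embryonic stem cells (ES–LBs) differs from the limb buds of the embryo.

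The RNA-seq libraries fall into 9 groups of 3. ES–FLB (forelimb type) and ES–HLB (hindlimb type) were day 9 aggregates of the EB5 Hand2::GFP +/- line, in which a fluorescent reporter sits in Hand2, a transcription factor gene of limb bud mesenchyme. Both types received BMP4 and Matrigel first and later LDN193189, a BMP inhibitor, and Wnt3. ES–FLB received retinoic acid in between and ES–HLB a retinoic acid antagonist, so limb type and retinoic acid treatment cannot be told apart between them. By the study's methods, the later culture medium of both types also held hydrocortisone and methylcellulose. The aggregates were trypsinised and reporter-positive cells were sorted. The embryonic groups were Slc:ICR tissues with no sorting named: early forelimb and hindlimb buds (early FLB and early HLB, both labelled E10.0), E10.5 FLB and E10.5 HLB, and 3 other E10.5 tissues, the tail bud (TB), branchial arch (BA) and cardiac tissue (Ca). The study's legend places the early FLB at an earlier stage than the early HLB, so limb type and stage cannot be told apart between them. Sorting, strain and culture, hydrocortisone included, are likewise shared by all ES–LB libraries, and their parts in a difference from limb buds cannot be told apart.

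TGF-beta ligands are secreted in a latent complex that Ltbp proteins anchor to matrix. Once freed, a ligand binds the type II receptor Tgfbr2, which recruits and activates the type I receptor Tgfbr1, and Smad2 and Smad3 carry the signal to the nucleus. Activins, dimers of inhibin beta subunits, use other receptors but the same Smads. In the limb this pathway is known for its roles in tendon progenitors, cartilage and joints.

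Of 27 libraries, 26 were used. Replicate 2 of the E10.5 HLB was left out because nearly every gene of chromosomes 5, 6, 7, 8, 9 and X is listed at 0 in it, among them Tgfb1, Tgfbr2 and Tgfbr3, so that E10.5 HLB has n = 2. Depth was between 19642244 and 22142300 reads in the early limb buds, between 5543755 and 5908845 in the E10.5 limb buds and between 6569891 and 8541931 in the other groups. Of the values above 0, 92.3% to 92.6% were whole reads in the early limb buds and 98.6% to 98.9% in the other libraries used. Every comparison with early buds shares this technical difference, whose part cannot be told apart from stage or origin. Values are counts per 1000000 reads (CPM) after scaling between libraries. Summed over 7 markers, limb mesenchyme genes were at 1886 to 1968 CPM in the ES–LBs and at 1414 to 1711 in limb buds. These markers did not move together. Pdgfra (means of 745 and 544 CPM against 206 to 450), Twist1 and Hand2, the gene of the sorted reporter, had higher means in both ES–LB types. For Hand2 the ES–FLB libraries overlapped those of E10.5 FLB, at means of 153 and 149 CPM. Msx1 (41.2 and 73.5 CPM against 103 to 221), Prrx2 and Fgf10 were lower in both, and Prrx1 lay within the limb bud means. Summed over 6 markers each, endothelial genes were at 24.9 to 42.8 CPM in the ES–LBs and at 292 to 422 in limb buds, and red blood cell genes at 5.37 to 165 against 2394 to 7077, with none of the endothelial markers at 0 in any group. Over 6 surface epithelium markers the sums were 63.2 to 130 CPM in the ES–LBs and 186 to 437 in limb buds. Trp63 was at means of 3.56 and 4.05 in the ES–LB types and 38.3 to 71.9 in limb buds. Fgf8, Epcam and Krt18 were likewise lower in both types, but Cdh1 and Krt8 only in ES–FLB. In ES–HLB those were at 43.4 and 37.5 CPM, within the limb bud means of 42.0 to 60.8 and 26.3 to 104. Sox2, which neural and pluripotent cells express, was at means of 8.71 in ES–FLB and 22.8 in ES–HLB and at most 0.558 in limb buds. The part of these cell types in the differences below was not tested. In bulk samples, fewer cells of a type and less RNA per cell cannot be told apart.

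Promoters are shown for the 4 genes on which the account below turns most: the ligand genes that were higher in ES–LBs than in buds of both stages and types (Tgfb2 and Inhba), the carrier Ltbp1 and the target Tgfbi. RefSeq promoters on GRCm38.p6 were found for 8 of the 10 genes, not for Tgfb3 and Tgfbr3. Each runs from 250 bases before the start of transcription to 50 bases after it, 5′ to 3′ on the strand of the gene. Capitals mark matches, on either strand, to the SMAD element CAGAC, the TATA element TATAAA, the cyclic AMP response element TGACGTCA and the AP-1 element TGANTCA. Tgfb2 lies at chr1:186705940-186706239 (minus strand), Inhba at chr13:16011601-16011900 (plus), Tgfbi at chr13:56609336-56609635 (plus) and the first of the Ltbp1 promoters at chr17:75005279-75005578 (plus).
Tgfb2: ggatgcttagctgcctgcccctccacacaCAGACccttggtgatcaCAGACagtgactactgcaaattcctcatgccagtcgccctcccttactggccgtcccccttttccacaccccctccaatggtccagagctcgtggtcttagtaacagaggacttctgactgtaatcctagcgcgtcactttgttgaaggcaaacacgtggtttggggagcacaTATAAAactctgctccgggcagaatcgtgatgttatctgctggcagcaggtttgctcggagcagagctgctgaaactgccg
Inhba: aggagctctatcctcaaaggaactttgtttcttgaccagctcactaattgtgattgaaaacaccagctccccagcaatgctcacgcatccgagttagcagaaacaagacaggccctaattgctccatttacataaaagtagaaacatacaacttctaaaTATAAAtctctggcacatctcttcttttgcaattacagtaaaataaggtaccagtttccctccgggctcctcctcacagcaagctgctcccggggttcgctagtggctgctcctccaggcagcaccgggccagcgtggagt
Tgfbi: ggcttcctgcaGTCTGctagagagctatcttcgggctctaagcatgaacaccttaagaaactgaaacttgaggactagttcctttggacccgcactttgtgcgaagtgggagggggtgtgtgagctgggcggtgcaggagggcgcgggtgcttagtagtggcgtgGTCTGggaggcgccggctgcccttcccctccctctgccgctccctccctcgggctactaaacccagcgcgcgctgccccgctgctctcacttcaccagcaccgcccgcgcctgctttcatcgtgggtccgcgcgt
Ltbp1: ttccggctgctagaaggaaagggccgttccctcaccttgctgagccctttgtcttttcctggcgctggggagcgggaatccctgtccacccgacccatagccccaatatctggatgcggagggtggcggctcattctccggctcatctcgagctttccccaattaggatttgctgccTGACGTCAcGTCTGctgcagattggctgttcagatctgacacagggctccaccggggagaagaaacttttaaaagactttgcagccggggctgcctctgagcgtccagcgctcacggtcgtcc
The Tgfb2 promoter holds CAGAC 221 and 204 bases before the start and a TATA element 31 bases before it. Inhba has a TATA element 91 bases before its start. Tgfbi holds the SMAD letters 239 and 85 bases before the start. Ltbp1 has the cyclic AMP response element 73 bases and the SMAD letters 64 bases before the start. Among all 32851 promoters of this length, 49.6% hold the SMAD letters, 13.6% the TATA element, 1.79% the cyclic AMP response element and 7.81% the AP-1 element, which is in none of the 8 members' windows. These matches are descriptions of sequence and say nothing of binding.

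Against early limb buds, most of the genes were higher in ES–LBs. Of the 10, 7 were past an adjusted p of 0.05 and higher in ES–FLB than in early FLB, where 35.3% of all genes tested were higher, and 2 were lower (41.4% of all genes). In ES–HLB against early HLB 8 were higher (34.8%) and 2 were lower (40.4%). Calls were so common that a change of at least 2-fold upward is the more selective reading: 6 genes met it in ES–FLB against 15.8% of all genes, and all 8 that were higher met it in ES–HLB against 14.8%. The median log2 fold change of the 10 genes was 1.77 and 1.37, beside -0.05 for all genes in both. With CPM as deposited, 62.75% and 61.3% of all calls were higher in place of 46.1% and 46.2%.

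Against the older limb buds the count was alike. In ES–FLB against E10.5 FLB 7 genes were higher (32.9% of all genes) and 2 lower (35.7%), and 6 were at least 2-fold higher (11.2%). In ES–HLB against E10.5 HLB 7 were higher (32.9%), 1 was lower (35.6%) and 7 were at least 2-fold higher (13.8%). These comparisons use the ES–LB libraries of the former ones again. All tests are limma's moderated test on log2(CPM + 0.5) over 14438 genes with Benjamini-Hochberg adjustment, and fold changes on this scale understate those of low genes. The labels do not say whether replicates came from separate cultures or embryos, so p-values measure the spread between these libraries, which may be technical.

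**Figure D1:**
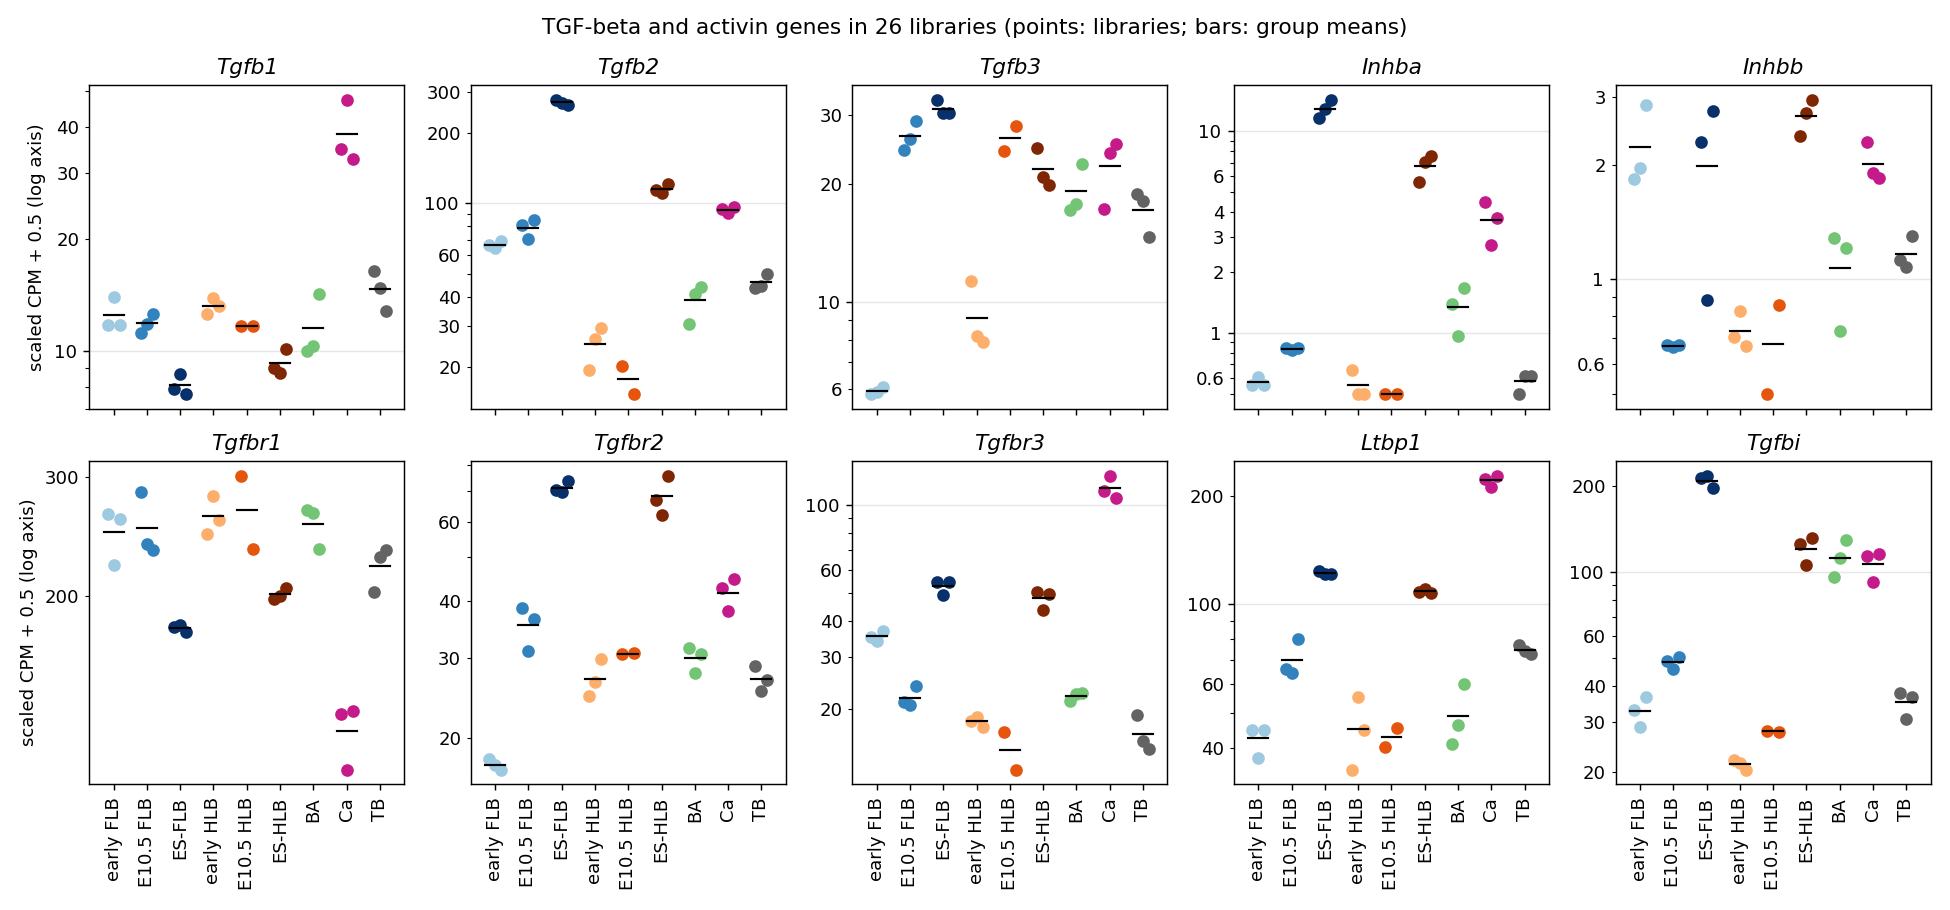
Scaled CPM plus 0.5 (log axis) of the 10 genes in each of the 26 libraries, by group, with points for libraries and bars for group means. The means of Tgfb2, Tgfb3, Inhba, Tgfbr2 and Tgfbi are highest in the ES–FLB group, while those of Tgfb1, Tgfbr3 and Ltbp1 are highest in Ca.

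Tgfb2 had the highest level per kilobase among the ligand genes of ES–LBs. In the ES–FLB libraries it was at 277, 267 and 264 CPM and in early FLB at 66.1, 63.8 and 68.3, a fold of 4.05 (log2 fold change 2.02 ± 0.14 SE, adjusted p = 2.4e-11). In the ES–HLB libraries it was at 113, 109.8 and 120.5 CPM and in early HLB at 18.9, 25.8 and 29.0, a fold of 4.66 (adjusted p = 5.8e-12). The ES–LB and limb bud libraries were far apart in both limb types, and the lowest ES–HLB library was above every embryonic library of the series. Against the E10.5 buds the folds were 3.43 in the forelimb (adjusted p = 3.9e-10) and 6.51 in the hindlimb (adjusted p = 3.0e-12).

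Tgfb3 followed the stage of the limb bud it was compared with. It was at 32.4, 29.9 and 29.9 CPM in ES–FLB and at 5.31, 5.36 and 5.55 in early FLB, a fold of 5.28 (log2 fold change 2.40 ± 0.14 SE, adjusted p = 2.9e-16). In ES–HLB it was at 24.2, 20.3 and 19.5 CPM and in early HLB at 10.8, 7.65 and 7.41, a fold of 2.42 (adjusted p = 1.1e-09). At E10.5 the buds had reached 23.9, 25.6 and 28.6 CPM in the forelimb and 23.8 and 27.6 in the hindlimb. The differences of ES–LBs from those were not past the threshold, with log2 fold changes of 0.24 ± 0.14 SE (adjusted p = 0.133) and -0.27 ± 0.16 SE (adjusted p = 0.129). Fitted with only the libraries of the 2 groups compared, both passed it, with adjusted p of 0.0235 and 0.0443. The span of the Tgfb3 gene, introns included, shares 5149 bases with that of Ttll5 on the opposite strand. Overlap of their exons was not measured. The strand setting of the authors' counting is not stated, so whether reads of Ttll5 were counted for Tgfb3 is not known.

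Tgfb1 went the other way. It was at 7.39, 8.17 and 7.16 CPM in ES–FLB and at 11.2, 13.4 and 11.2 in early FLB, a log2 fold change of -0.62 ± 0.14 SE (adjusted p = 0.000122). In ES–HLB it was at 8.48, 8.22 and 9.61 CPM and in early HLB at 12.1, 13.4 and 12.7, a log2 fold change of -0.51 ± 0.14 SE (adjusted p = 0.00106) which was not past the threshold with CPM as deposited (-0.27, adjusted p = 0.0735). Tgfb1 also fell against E10.5 FLB (-0.56, adjusted p = 0.00058), while the difference from E10.5 HLB, -0.33 ± 0.15 SE, lay at the threshold (adjusted p = 0.0505). All limb bud libraries were above all ES–LB libraries. Tgfb1 is also a gene of blood and vessel cells: the endothelial and red blood cell markers moved with it, being lowest in ES–LBs and highest in Ca (892 to 955 and 23902 to 34581 CPM). Macrophage and platelet markers did not: they summed to 1.91 to 2.86 CPM in ES–FLB, 9.26 to 12.5 in ES–HLB and 5.90 to 6.93 in early FLB. Their highest limb bud sum was 24.4. Only Itga2b was above the limb bud means in an ES–LB type, at 7.29 CPM in ES–HLB against 3.07 to 4.97. The part of these cell types in the result was not tested.

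Inhba, which encodes the subunit of activin A, was nearly silent in limb buds. The ES–FLB libraries held it at 11.1, 12.4 and 13.9 CPM and the ES–HLB libraries at 5.11, 6.55 and 7.03 CPM. No limb bud library held more than the floor of 3 reads, with 4 reads in all in early FLB, 3 in early HLB, 6 in E10.5 FLB and 0 in E10.5 HLB. By reads, 306 in ES–FLB against 4 in early FLB give a ratio of 176 with a 95% exact interval of 68.0 to 650.0, and 148 in ES–HLB against 3 in early HLB one of 116 (38.9 to 568). Against E10.5 FLB the ratio was 36.9 (16.7 to 101), and ES–HLB was at least 11.5-fold higher than E10.5 HLB, taking 3 reads per library as the floor. The intervals cover counting error only. The span of the Inhba gene, introns included, shares 11573 bases with the pseudogene B230303A05Rik on the opposite strand, which the expression table does not list. Overlap of their exons was not measured. All 4 comparisons were past the threshold in limma (adjusted p between 4.0e-18 and 2.7e-14).

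Inhbb, the subunit of activin B, was low everywhere and did not share one direction. In ES–HLB it was at 1.87, 2.23 and 2.46 CPM and in early HLB at 0.204, 0.326 and 0.17, a rise of 1.87 ± 0.30 SE on the log2 scale (adjusted p = 1.5e-06). In ES–FLB it was at 1.79, 0.383 and 2.27 CPM and in early FLB at 1.33, 1.46 and 2.37, with overlapping libraries and no call (log2 fold change -0.29 ± 0.30 SE, adjusted p = 0.38). ES–FLB replicate 2 held 3 reads of it. The E10.5 buds held 1 read in each forelimb library and 0 and 2 reads in the hindlimb libraries. Against them the ratios by reads were 8.92 (2.82 to 45.2) in the forelimb and 12.2 (3.20 to 103) in the hindlimb (adjusted p = 0.000125 and 3.2e-06 in limma).

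Ltbp1, which holds latent TGF-beta in the matrix, rose in ES–LBs of both types. It was at 123, 121 and 121 CPM in ES–FLB and at 44.4, 37.0 and 44.4 in early FLB, a fold of 2.88 (log2 fold change 1.53 ± 0.14 SE, adjusted p = 3.5e-09). The ES–HLB libraries held it at 107, 110.0 and 107 CPM and those of early HLB at 34.3, 54.8 and 44.4, a fold of 2.46 (adjusted p = 4.5e-08). The E10.5 forelimb stood closer, with a fold of 1.75 (adjusted p = 3.4e-05), than the E10.5 hindlimb with 2.55 (adjusted p = 1.9e-07). No ES–LB library overlapped a limb bud library.

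The receptors moved apart from each other. Tgfbr2, the ligand-binding type II receptor, was at 69.8, 69.1 and 73.2 CPM in ES–FLB and at 17.4, 16.9 and 16.5 in early FLB, a fold of 4.08 (log2 fold change 2.03 ± 0.09 SE, adjusted p = 8.1e-20). The ES–HLB libraries were at 66.5, 61.5 and 75.3 CPM and those of early HLB at 24.1, 26.1 and 29.3, a fold of 2.53 (adjusted p = 4.9e-15). It stayed 2.02-fold above E10.5 FLB (adjusted p = 8.5e-12) and 2.22-fold above E10.5 HLB (adjusted p = 6.0e-12). Its partner Tgfbr1, the kinase that signals to Smads, was lower in ES–LBs. It was at 179.6, 181 and 177 CPM in ES–FLB and at 264, 222 and 259.8 in early FLB (log2 fold change -0.47 ± 0.10 SE, adjusted p = 0.000242), and at 197, 200.01 and 205 CPM in ES–HLB against 247, 281 and 259 in early HLB (-0.38 ± 0.10 SE, adjusted p = 0.00163). With CPM as deposited neither was past the threshold (-0.16, adjusted p = 0.127, and -0.13, adjusted p = 0.215). In that scaling the median of all genes moved from -0.05 to 0.22 and from -0.05 to 0.18. Against the E10.5 buds Tgfbr1 was also lower (-0.49, adjusted p = 0.000199, and -0.40, adjusted p = 0.00296), the latter not without E10.5 HLB replicate 1 (-0.22, adjusted p = 0.114).

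Tgfbr3, the coreceptor betaglycan that presents Tgfb2 to the signalling receptors, rose more in the hindlimb type. It was at 53.8, 48.5 and 53.7 CPM in ES–FLB and at 34.9, 33.5 and 36.6 in early FLB, a fold of 1.48 (log2 fold change 0.57 ± 0.10 SE, adjusted p = 6.4e-06). In ES–HLB it was at 49.9, 43.1 and 49.0 CPM and in early HLB at 17.7, 18.3 and 16.8, a fold of 2.64 (adjusted p = 4.2e-14). The ES–LB types overlapped with each other, and the early buds were the groups that differed by limb type. Against E10.5 FLB and E10.5 HLB the folds were 2.41 (adjusted p = 1.0e-12) and 3.33 (adjusted p = 8.5e-15).

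Tgfbi, a secreted matrix protein named for its induction by TGF-beta, had the largest fitted fold after Inhba against the early buds of either limb type. It was at 213, 217 and 196 CPM in ES–FLB and at 32.4, 28.2 and 36.1 in early FLB, a fold of 6.41 (log2 fold change 2.68 ± 0.11 SE, adjusted p = 2.6e-17). In ES–HLB it was at 125, 105 and 131 CPM and in early HLB at 21.5, 21.0 and 19.9, a fold of 5.65 (adjusted p = 1.5e-16). The folds against E10.5 FLB and E10.5 HLB were 4.31 (adjusted p = 1.2e-14) and 4.33 (adjusted p = 9.2e-14). Every ES–LB library was above every limb bud library.

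**Figure D2:**
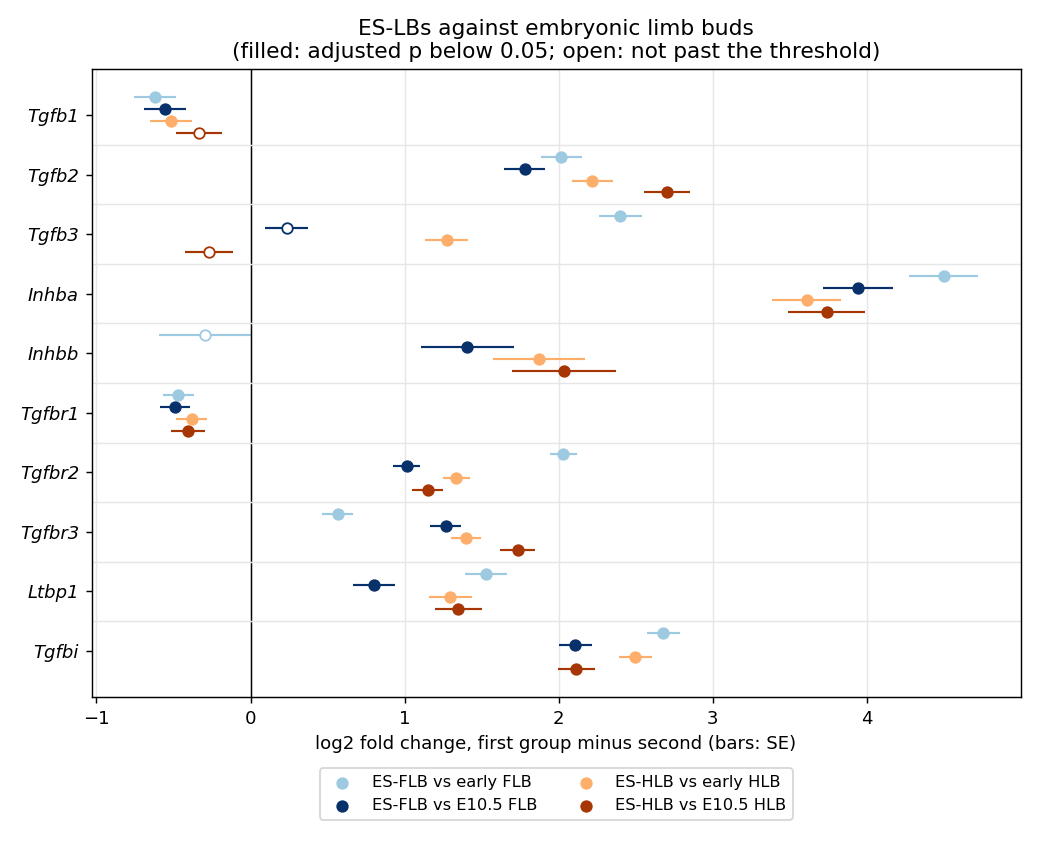
Log2 fold change (x axis) of the 10 genes in ES–FLB and ES–HLB against early and E10.5 buds of the same limb type, with bars for the SE, filled points past an adjusted p of 0.05 and open points not past it. Tgfb2, Inhba, Tgfbr2, Tgfbr3, Ltbp1 and Tgfbi lie above 0 in all 4 comparisons, Tgfb1 and Tgfbr1 below 0.

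Per kilobase of exon, the order of the TGF-beta ligand genes varied between tissues, with Tgfb2 first in every group except the embryonic hindlimb buds, which is given as a description. In ES–FLB Tgfb2 was at 51.8 CPM per kb, Tgfb3 at 9.08 and Tgfb1 at 3.48. In early FLB the order was Tgfb2 at 12.7, Tgfb1 at 5.49 and Tgfb3 at 1.6 CPM per kb. In E10.5 HLB Tgfb3 came first at 7.6 CPM per kb, before Tgfb1 at 5.13 and Tgfb2 at 3.33. Ca held Tgfb2 and Tgfb1 at nearly the same level, 17.96 and 17.4 CPM per kb. Inhba at 1.95 CPM per kb in ES–FLB and 0.975 in ES–HLB stayed below every TGF-beta ligand gene in those groups. Among the receptors Tgfbr1 was the highest per kb in every group, from 19.6 in Ca to 41.8 in E10.5 HLB.

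Tgfb2 and Tgfbi were lower in the hindlimb type both in culture and in the early embryo. In culture, limb type cannot be told apart from treatment with retinoic acid or its antagonist. Of the 10 genes, 4 were lower in ES–HLB than in ES–FLB, where 8.89% of all genes were lower, and 0 were higher (10.8%). These 4 were Tgfb2 (log2 fold change -1.23 ± 0.14 SE, adjusted p = 1.2e-06), Inhba (adjusted p = 0.0024), Tgfbi (-0.80 ± 0.11 SE, adjusted p = 4.8e-06) and Tgfb3 (-0.52 ± 0.14 SE, adjusted p = 0.00696). By reads, ES–FLB held 1.99 times the Inhba of ES–HLB (95% exact interval 1.63 to 2.44), and with a pseudocount of 0.1 that difference was not past the threshold (adjusted p = 0.0975). For the 6 genes without a call, the threshold was missed by Inhbb with adjusted p = 0.183 and by the other 5 with adjusted p between 0.282 and 0.681. Fitted with only the ES–LB libraries, Tgfbr1 (0.17, adjusted p = 0.00375) and Ltbp1 (-0.17, adjusted p = 0.0121) passed it, and Inhbb did without ES–FLB replicate 3 (adjusted p = 0.048).

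In the early buds 2 genes were higher in the hindlimb (8.34% of all genes) and 4 were lower (10.7%). Tgfb2 was again lower in the hindlimb (-1.43 ± 0.14 SE, adjusted p = 1.9e-07), as was Tgfbi (-0.61 ± 0.11 SE, adjusted p = 0.000157). Inhbb (-1.57 ± 0.30 SE, adjusted p = 0.000221) and Tgfbr3 (-0.97 ± 0.10 SE, adjusted p = 8.9e-09) were lower as well. Tgfb3 (0.61 ± 0.14 SE, adjusted p = 0.0018) and Tgfbr2 (0.63 ± 0.09 SE, adjusted p = 2.3e-06) were higher. The latter pair are also genes that rose between the stages of the forelimb bud, and stage and limb type cannot be told apart in the early buds.

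The hindlimb minus forelimb difference itself was compared between ES–LBs and early buds with an interaction term. That term was past the threshold for 5 of the 10 genes and for 20% of all genes. Limb type goes with retinoic acid treatment in the ES–LBs and with stage in the early buds. For Tgfb2 the difference in log2 fold change was 0.20 ± 0.19 SE (adjusted p = 0.537) and for Tgfbi -0.18 ± 0.15 SE (adjusted p = 0.462), so no difference between in vitro and in vivo was detected in either. For Tgfb3 it was -1.13 ± 0.20 SE (adjusted p = 8.0e-05): higher in the forelimb type in vitro, higher in the hindlimb among early buds. For Inhbb it was 2.17 ± 0.43 SE (adjusted p = 0.000323), for Tgfbr2 -0.69 ± 0.12 SE (adjusted p = 0.0001), for Tgfbr3 0.83 ± 0.14 SE (adjusted p = 4.8e-05) and for Inhba -0.89 ± 0.32 SE (adjusted p = 0.0461). Inhba has at most 3 reads in each early bud library, and its term was lost without any library of these 4 groups but ES–HLB replicate 3 (adjusted p between 0.0501 and 0.129) and with a pseudocount of 0.1 (adjusted p = 0.478).

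**Figure D3:**
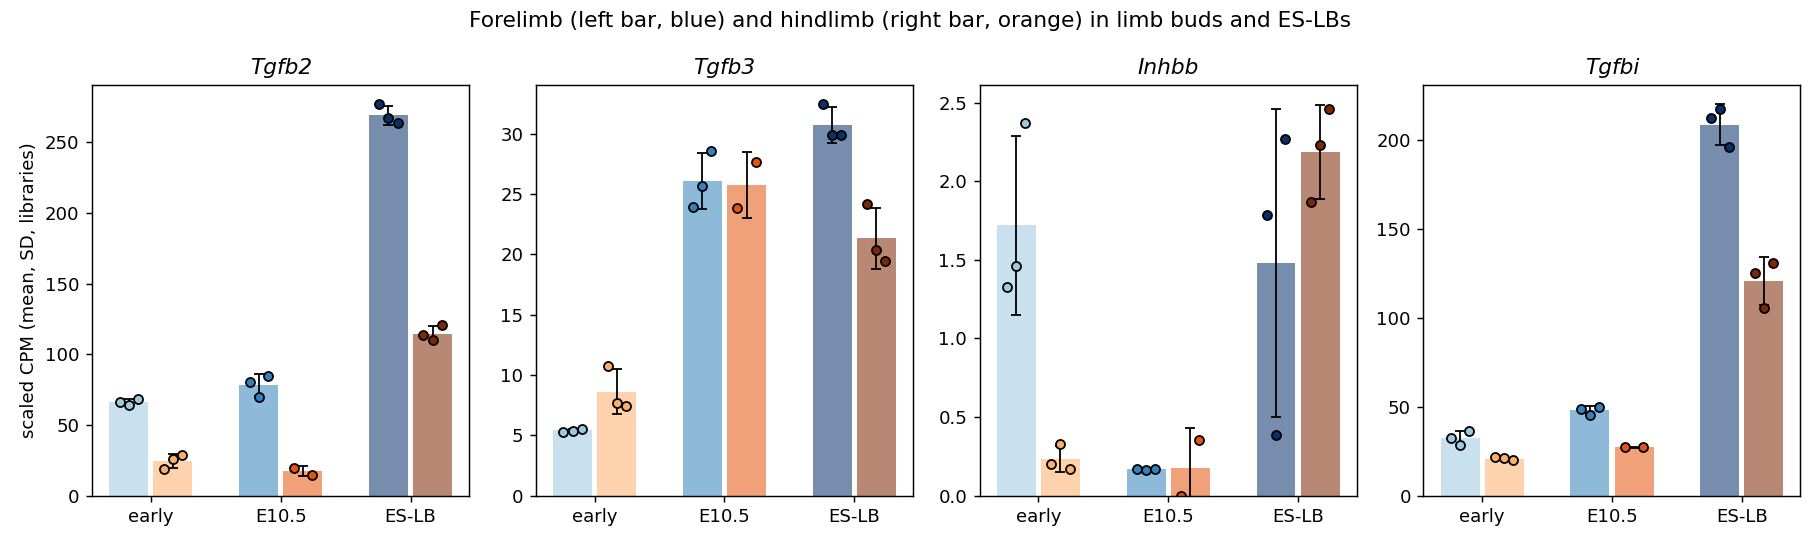
Scaled CPM of Tgfb2, Tgfb3, Inhbb and Tgfbi in forelimb (blue) and hindlimb (orange) for early buds, E10.5 buds and ES–LBs, with bars for means, whiskers for the SD and points for libraries (n = 3, and n = 2 in E10.5 HLB, where the Inhbb whisker is cut at 0). Tgfb2 and Tgfbi are higher in the forelimb in all 3 settings, whereas Tgfb3 is higher in the hindlimb only in the early buds.

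Between the stages, Tgfb3 rose in both limb types. The early libraries are also the deeper ones, and stage cannot be told apart from that difference. In the forelimb 5 genes were higher at E10.5 than in the early bud (24.3% of all genes) and 2 were lower (36.1%). Tgfb3 rose 4.48-fold (log2 fold change 2.16 ± 0.14 SE, adjusted p = 2.1e-14) and Tgfbr2 rose 2.02-fold (adjusted p = 1.2e-11). Ltbp1 (0.72, adjusted p = 0.000131) and Tgfbi (0.57, adjusted p = 5.8e-05) rose less. Tgfbr3 fell (-0.70, adjusted p = 3.2e-07), and Inhbb fell from 97 reads in 3 early libraries to 3 reads in 3 shallower E10.5 libraries, a ratio of early over E10.5 of 10.2 (95% exact interval 3.38 to 50.1, adjusted p = 1.2e-05 in limma). Inhba was called higher (adjusted p = 0.0338) with every library of both groups at or under 3 reads, so no fold is given, and the call was lost without any library of these groups but early FLB replicate 2.

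In the hindlimb 4 genes passed the threshold, 2 higher and 2 lower at E10.5, where 31.5% of all genes passed in either direction. Tgfb3 rose 2.91-fold (1.54 ± 0.16 SE, adjusted p = 8.2e-09) and this held in every fit that left out a library. The other 3 calls, Tgfb2 (-0.48, adjusted p = 0.0197), Tgfbr3 (-0.34, adjusted p = 0.0209) and Tgfbi (0.38, adjusted p = 0.0166), were lost without E10.5 HLB replicate 3, at adjusted p of 0.288, 0.545 and 0.0779. The first of them was lost also without early HLB replicate 2 or 3 (0.0699 and 0.0898), the second without early HLB replicate 2 (0.0651) and the third without early HLB replicate 3 or E10.5 HLB replicate 1 (0.0576 and 0.0919). The Tgfb2 libraries of the hindlimb stages overlapped, at 18.9, 25.8 and 29.0 CPM and at 19.8 and 14.9.

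The change with stage differed between the limb types in 5 of the 10 genes, where 22.2% of all genes had such a difference. All 5 terms compare the hindlimb with the forelimb: Tgfbr2 -0.83 ± 0.13 SE (adjusted p = 2.7e-05), Ltbp1 -0.77 ± 0.21 SE (adjusted p = 0.0103), Tgfb2 -0.72 ± 0.20 SE (adjusted p = 0.0146), Tgfb3 -0.62 ± 0.21 SE (adjusted p = 0.0299) and Inhbb 1.54 ± 0.45 SE (adjusted p = 0.0129). Tgfb2 and Inhbb were not past the threshold without E10.5 HLB replicate 3 (adjusted p = 0.105 and 0.114), nor were Ltbp1 and Tgfb3 without E10.5 HLB replicate 1 (adjusted p = 0.0638 and 0.156). Tgfb3 was lost also without early FLB replicate 1 or 2, E10.5 FLB replicate 3 or early HLB replicate 1 (adjusted p between 0.0511 and 0.117). The early forelimb is the earlier stage, so the interval of time cannot be told apart from limb type here.

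In cardiac tissue more of the 10 genes were higher than lower against the E10.5 forelimb. In Ca 7 were higher (36.1% of all genes) and 1 was lower (38.5%). Tgfbr3 was at 111, 126 and 105 CPM in Ca and at 20.5, 20.1 and 23.4 in E10.5 FLB, a fold of 5.23 (adjusted p = 4.0e-20). Tgfb1 was at 34.5, 46.9 and 32.3 CPM against 10.7, 11.3 and 12.1, a fold of 3.20 (adjusted p = 8.6e-13), and Ltbp1 at 222, 211 and 227 against 65.7, 64.1 and 79.4, a fold of 3.15 (adjusted p = 1.1e-09). Ca was above every other library of the series in these 3 genes. Heart muscle markers summed to 19289 to 22825 CPM in Ca and to at most 6.71 in E10.5 FLB, and limb mesenchyme markers to 380.0 to 475. Tgfbr1 was lower in Ca, at 133, 110.2 and 135 CPM against 285, 239 and 234 (log2 fold change -0.999 ± 0.10 SE, adjusted p = 1.2e-08). Tgfbi was 2.202-fold higher (adjusted p = 6.7e-10), and Inhba and Inhbb were higher by reads, with ratios of 9.39 (95% exact interval 4.11 to 26.4) and 8.99 (2.83 to 45.7). Tgfbr2 was higher by a log2 fold change of 0.24 (adjusted p = 0.0135) with overlapping libraries. It was not past the threshold with CPM as deposited (adjusted p = 0.175) or without E10.5 FLB replicate 2 (adjusted p = 0.141) or Ca replicate 3 (adjusted p = 0.0747).

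In BA 2 genes were higher (11% of all genes) and 3 were lower (9.72%). Tgfbi was at 95.9, 111 and 129 CPM in BA and at 48.6, 45.5 and 49.9 in E10.5 FLB, a fold of 2.31 (adjusted p = 3.6e-09), and Tgfb2 fell to 30.1, 40.5 and 43.4 CPM from 80.3, 70.0 and 84.5 (log2 fold change -1.05 ± 0.14 SE, adjusted p = 6.9e-06). These 2 calls held in every fit that left out a library. The calls for Ltbp1 (-0.53, adjusted p = 0.00843) and Tgfb3 (-0.48, adjusted p = 0.0125) were lost without BA replicate 1 (adjusted p = 0.0541 and 0.0747), that for Tgfb3 also without BA replicate 2 (0.0539) or E10.5 FLB replicate 3 (0.0698), and that for Inhba, 22 reads against 6 (ratio 2.49, 95% exact interval 0.981 to 7.52, adjusted p = 0.0393), without any library but BA replicate 2 (adjusted p between 0.0736 and 0.227). Branchial arch markers summed to 346 to 382 CPM in BA and to 33.0 to 42.7 in E10.5 FLB.

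In TB 1 gene was higher (23.5% of all genes) and 6 were lower (22.3%). Apart from Inhba and Inhbb, which rest on few reads, the largest changes were those of Tgfb2, at 43.2, 43.8 and 49.6 CPM (-0.77 ± 0.14 SE, adjusted p = 9.1e-05), and Tgfb3, at 18.4, 17.6 and 14.1 CPM (-0.63 ± 0.14 SE, adjusted p = 0.000392). Tgfbi (-0.47, adjusted p = 0.000785), Tgfbr3 (-0.42, adjusted p = 0.000837) and Tgfbr2 (-0.39, adjusted p = 0.000465) fell by less than 2-fold. The calls for Inhba and Inhbb rest on 2 against 6 and 17 against 3 reads and were lost, the first without any library of the 2 groups (adjusted p between 0.0629 and 0.162) and the second without any but TB replicate 2 (0.0533 to 0.0961). The 3 comparisons of this kind share the E10.5 FLB libraries.

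**Figure D4:**
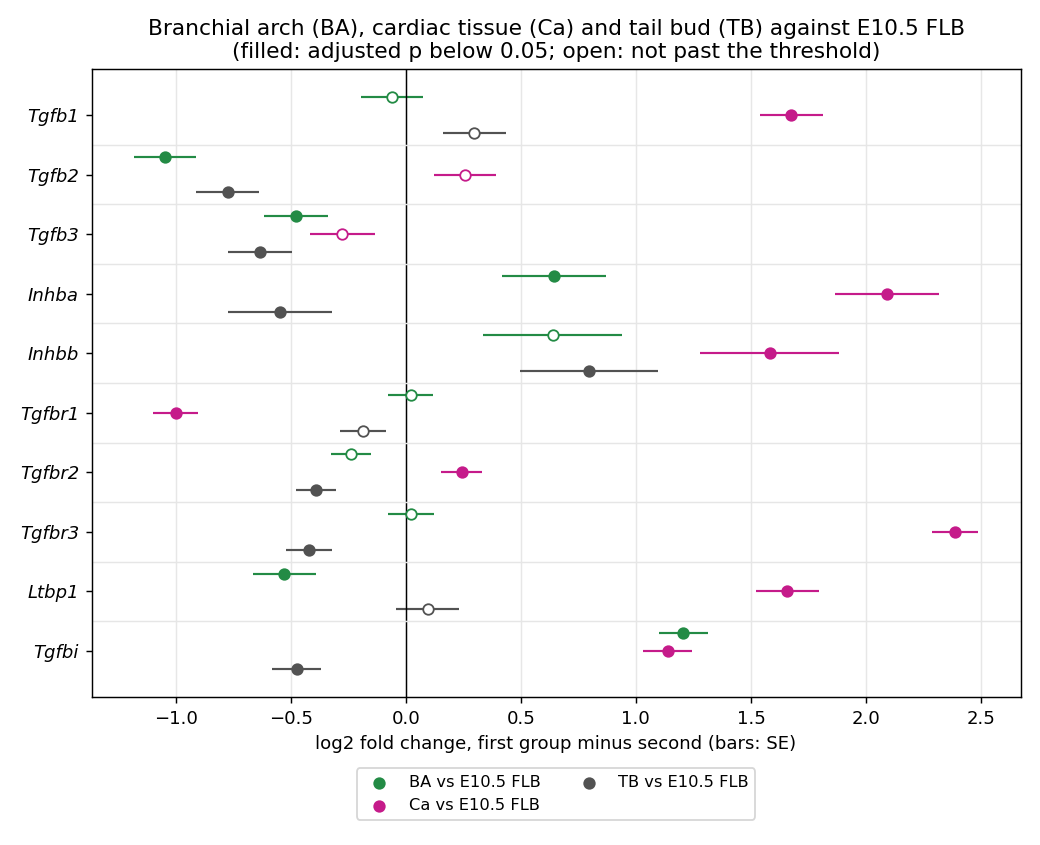
Log2 fold change (x axis) of the 10 genes in BA, Ca and TB against E10.5 FLB, with bars for the SE, filled points past an adjusted p of 0.05 and open points not past it. Tgfbr3, Inhba, Tgfb1 and Ltbp1 are shifted furthest to the right in Ca, and Tgfb2 lies to the left in BA and TB.

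The other genes of the pathway were taken from 6 lists. The lists were chosen with earlier results of these data known, so their counts are descriptions and not an independent comparison. Beside each list stand the shares of all genes called: in ES–FLB against early FLB 35.3% were higher and 41.4% lower, and in ES–HLB against early HLB 34.8% and 40.4%, with a median log2 fold change over all genes of -0.05 in both. Of 19 latency and activation genes tested, 12 were higher and 4 lower in ES–FLB, and 13 and 4 in ES–HLB, with median log2 fold changes of 0.82 and 0.87. Ltbp3, a further latent TGF-beta binding protein, was at 40.5 CPM in ES–FLB against 3.19 in early FLB (log2 fold change 3.47 ± 0.17 SE) and at 24.1 in ES–HLB against 4.62 in early HLB (2.26 ± 0.17 SE). Ltbp4 rose by 2.47 and 1.66 on the log2 scale, Fbn1, the fibrillin to which these proteins attach, by 2.00 and 2.52, and Bmp1, a protease that cleaves matrix proteins, by 2.15 and 1.43 (adjusted p of all 4 at most 1.5e-13).

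Antagonists moved both ways. Of 16 tested, 8 were higher (35.3% of all genes) and 8 lower (41.4%) in ES–FLB, and 9 (34.8%) and 7 (40.4%) in ES–HLB. Fst (follistatin), which binds activins, was at 12.0 CPM in ES–FLB against 2.05 in early FLB (2.27 ± 0.19 SE, adjusted p = 1.1e-12) and at 17.8 in ES–HLB against 0.54 in early HLB (4.13 ± 0.19 SE, adjusted p = 4.9e-19). The TGF-beta binding proteoglycans Dcn (3.62 and 5.22, adjusted p = 2.7e-08 and 1.2e-10) and Bgn (1.91 and 2.76, adjusted p = 4.2e-17 and 1.0e-20) and the feedback gene Pmepa1 (3.09 and 1.53, adjusted p = 1.4e-19 and 9.6e-12) rose in both types. Dcn is named by the study for these samples and is not independent evidence.

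Of 8 other ligands of activin and nodal type, 5 were higher (35.3% of all genes) and 2 lower (41.4%) in ES–FLB, and 6 (34.8%) and 2 (40.4%) in ES–HLB. Inha, the inhibin alpha subunit that turns beta subunits into inhibins, rose by 1.69 ± 0.26 SE and 1.38 ± 0.26 SE on the log2 scale (adjusted p = 4.9e-07 and 1.3e-05). Gdf11 fell, from 25.8 to 18.8 CPM in the forelimb and from 36.3 to 22.9 in the hindlimb (adjusted p = 0.00069 and 5.0e-06), and Gdf1 was at 1.43 and 1.64 CPM in ES–LBs against 7.94 and 6.50 in the early buds (adjusted p = 0.00253 and 0.0135).

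Of 11 other receptors and coreceptors, 4 were higher (35.3% of all genes) and 3 lower (41.4%) in ES–FLB, and 5 (34.8%) and 4 (40.4%) in ES–HLB, so that the share higher in ES–FLB and the share lower in ES–HLB were near those over all genes. Eng (endoglin), a TGF-beta coreceptor of endothelium, was at 4.42 to 6.19 CPM in ES–FLB and 30.1 to 33.9 in early FLB (log2 fold change -2.46 ± 0.11 SE, adjusted p = 8.4e-20) and fell in ES–HLB as well (-1.80, adjusted p = 3.5e-16). The endothelial marker Kdr moved with it, at 7.89 and 12.5 CPM in the ES–LB types and 116 and 105 in the early buds; its part in the result was not tested. Acvr2b, an activin type II receptor, fell by 1.48 and by 1.06 on the log2 scale (adjusted p = 3.6e-16 and 2.0e-12), and Cd109 fell by 0.97 and by 1.09 (adjusted p = 3.6e-08 and 3.8e-09). Tdgf1, the nodal coreceptor Cripto that undifferentiated stem cells express, was at 1.13 CPM in ES–FLB and 8.91 in ES–HLB, with 0 reads in early FLB and 1 in early HLB.

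Of 8 signal transducers tested, 2 were higher and 3 lower in either ES–LB type, beside 35.3% and 41.4% of all genes in ES–FLB and 34.8% and 40.4% in ES–HLB, and the list's median log2 fold changes were 0.00 and 0.03. Smad4 was lower by a log2 fold change of -0.18 in both (adjusted p = 0.00268 and 0.00299), Tab2 higher by 0.18 and 0.19 (adjusted p = 0.000766 and 0.000474), and Zfyve9, the anchor that brings Smads to the receptor, lower by -0.84 and -0.57 (adjusted p = 6.7e-11 and 1.9e-07).

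Genes known to respond to TGF-beta were mostly higher in ES–LBs, as Tgfbi was. Of 22 tested, 13 were higher (35.3% of all genes) and 4 lower (41.4%) in ES–FLB against early FLB, and 15 (34.8%) and 1 (40.4%) in ES–HLB against early HLB, with medians of 0.99 and 1.96. The collagen genes Col1a2 (2.67 and 3.65, adjusted p = 2.8e-12 and 2.9e-14) and Col3a1 (2.89 and 2.92, adjusted p = 5.9e-15 and 6.7e-15) and the immediate response genes Junb (3.11 and 2.47, adjusted p = 8.1e-13 and 6.5e-11) and Cyr61 (2.92 and 3.05, adjusted p = 2.9e-09 and 1.7e-09) were higher in both types. These genes answer to many other stimuli, and the trypsin and sorting that all ES–LB cells went through cannot be told apart from the tissue. Between the early buds 12 of the 22 were lower in the hindlimb and 0 higher, beside 10.7% of all genes lower. The list includes Tnc, which the study names for these samples.

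**Figure D5:**
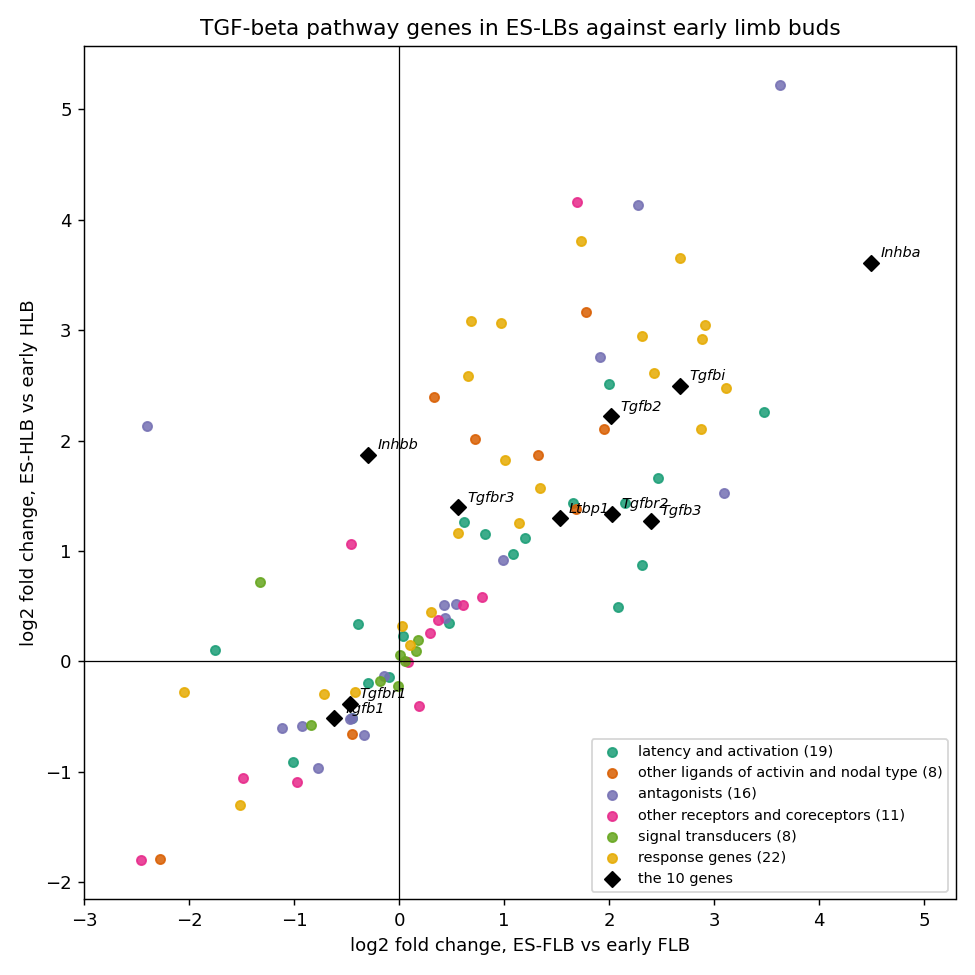
Log2 fold change in ES–FLB against early FLB (x axis) and in ES–HLB against early HLB (y axis) for the 10 genes (black diamonds, named) and the 84 tested genes of the 6 pathway lists (coloured by list, with the number tested). Most latency and response genes lie in the upper right with Tgfb2, Tgfb3, Inhba, Tgfbr2 and Tgfbi, and the signal transducers have medians of 0.00 and 0.03.

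In cardiac tissue the response and latency lists were mostly higher than in the E10.5 forelimb. In Ca against E10.5 FLB 36.1% of all genes were higher and 38.5% lower. Heart muscle markers summed to 19289 to 22825 CPM in Ca and to at most 6.71 in E10.5 FLB. The part of muscle and other cell types in these differences was not tested, and the response genes answer to many other stimuli. Of 22 response genes 15 were higher in Ca and 4 lower, led by the smooth muscle genes Cnn1 (300.2 CPM against 0.622) and Acta2 (1501 against 5.46; adjusted p = 2.1e-22 and 4.8e-13), and 12 of 19 latency genes were higher and 4 lower, led by Itgb3 (2.89) and Fbn1 (2.18, adjusted p = 2.7e-10 and 5.5e-16). Eng was at 186 CPM in Ca against 24.7 (adjusted p = 1.4e-21). Of 16 antagonists 10 were higher in Ca and 5 lower, led by Dcn (4.27) and Fmod (2.44, adjusted p = 2.6e-09 and 6.1e-13), while Smad3 fell (-0.86, adjusted p = 1.2e-16). Foxh1, a partner of Smads in nodal signalling, was at 1.87 CPM in Ca against 0.225 (adjusted p = 1.0e-06), and Cfc1, a nodal coreceptor, was at 2.17 CPM, while every E10.5 FLB library is listed at 0. Gdf11 was lower in Ca (-1.25, adjusted p = 1.7e-11), and Lefty1 was at 0.445 CPM, near the floor of 3 reads.

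In BA 6 of 22 response genes were higher (11% of all genes) and 4 lower (9.72%), with Ctgf at 23.3 CPM against 6.62 (adjusted p = 5.5e-10) and Postn at 58.0 against 17.8 (adjusted p = 0.00542) among the higher. Fbn1 (1.00, adjusted p = 3.2e-08) and Bgn (0.70, adjusted p = 2.7e-06) were higher. Lrrc32, Eng, Smad4, Gdf11 and Fstl3 passed the threshold with adjusted p between 0.0125 and 0.0431. In TB the tendon progenitor factor Scx was nearly absent, at 0.716 CPM against 42.6 (adjusted p = 4.7e-10), and Mmp2 was lower (-1.63, adjusted p = 5.1e-17). Fmod (3.12), Fst (2.29) and the smooth muscle gene Tagln (2.76) were higher in TB (adjusted p = 1.2e-14, 7.0e-12 and 1.7e-06). Acvrl1 (0.59) and Eng (0.52) were higher there and Smad4 (-0.23) and Map3k7 (-0.18) lower (adjusted p between 0.000153 and 0.00235), and Ltbp2 and Lefty2 were at 1.47 and 1.09 CPM, with E10.5 FLB at or under 3 reads per library.

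The genes whose pattern was most like that of each of the 10 were found by Pearson's r of log2(CPM + 0.5) over the 9 group means among genes that reached 10 CPM in some group, given as a description without a test. For Tgfb3 the nearest was Dnmt3a (r = 0.991), and it was also the nearest over the 26 libraries (r = 0.974). For Inhba it was Tnrc6b (r = 0.995), for Tgfbi Flrt2 (r = 0.967), for Tgfbr1 Ezh2 (r = 0.989), for Tgfbr2 Slc2a8 (r = 0.981) and for Tgfbr3 Irf5 (r = 0.976). Tgfb1 was nearest to Fech (r = 0.992), an enzyme of haem synthesis, with Oxnad1 (r = 0.988) and Dusp3 (r = 0.987) close behind. Over the 26 libraries Fech ranked 8 and Dusp3 2. The part of red blood cells, whose markers are given above, was not tested. For Tgfb2 the nearest, Spopl, reached r = 0.938 over groups and 0.660 over libraries, where it ranked 905. Ltbp1 was nearest to 2810432L12Rik (r = 0.984) and Inhbb to Utrn (r = 0.941). Inhba was at or under 3 reads in every library of the limb buds and TB, so its r rests mostly on the other groups. Inhbb had a mean of at most 2.19 CPM in any group. The points share the libraries, their depth and their scaling.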

How the data were processed

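RNA-seq libraries of 9 groups (27 libraries, 26 used) were analysed from the deposited CPM values, which the authors computed with edgeR 3.16.2 from stranded single-end reads aligned to mm10 with HISAT2 2.0.4 after FastQC 0.11.5. The submitters' processing notes also name Cuffdiff and Cufflinks 2.1.1. How strand was set in counting is not given in the sources used here. Each column sums to 1000000. Depth was estimated from the smallest step between values (within 0.02 reads) and was between 5543755 and 22142300 reads, so that 3 reads are worth 0.135 to 0.541 CPM. Intervals and floors cover counting error only.

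Libraries were scaled by an unweighted trimmed mean of log ratios (30% of ratios and 5% of intensities trimmed). The 14438 genes that reached 1 CPM in 3 or more libraries were fitted in one model of 9 group means with limma 3.58.1 (R 4.3.3, trend and robust) on log2(CPM + 0.5), with Benjamini-Hochberg adjustment and a threshold of 0.05. The fit was tested on simulated data. Other computation used matplotlib 3.10.9, pandas 2.3.3 and numpy 2.4.6 under Python 3.11.15. Per-kilobase levels used exon lengths of the GENCODE annotation.

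Replicate 2 of the E10.5 HLB was left out. The 10 genes and the 6 pathway lists were chosen with earlier results of these data known. Of each list, the text names up to 4 genes of 5 CPM or more with the largest mean change past the threshold in ES–FLB and ES–HLB against early buds, and the 2 largest in each of BA, Ca and TB. Alternatives were other scalings, pseudocounts, filters, thresholds and variance models, only the groups compared, a replicate block, the left-out library and each library left out in turn.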

Additional observations from a re-analysis of the deposited data

Results flagged for a closer look

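For 7 of the 10 genes, 1 or both of the interaction terms were past the threshold (limma, adjusted p below 0.05). Between culture and early buds, the hindlimb minus forelimb difference on the log2 scale differed by -1.127 for Tgfb3, by -0.8881 for Inhba, by 2.166 for Inhbb, by -0.6931 for Tgfbr2 and by 0.8337 for Tgfbr3. Between limb types, the change from the early to the E10.5 bud differed, as hindlimb minus forelimb, by -0.7223 for Tgfb2, by -0.6242 for Tgfb3, by 1.541 for Inhbb, by -0.8294 for Tgfbr2 and by -0.7743 for Ltbp1. Tgfb3, Inhbb and Tgfbr2 had both terms past the threshold. Both terms use the early bud libraries, whose limb types differ in stage. The terms between culture and early buds also use the ES–LBs, whose limb types differ in retinoic acid treatment.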

How the results depend on the processing

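Requiring a 2-fold change as well, 4160 genes passed in ES–FLB and 3691 in ES–HLB against early buds, 2692 and 2937 against E10.5 buds, and 3823 in Ca. It left 1 of the 10 genes (630 of all) between ES–LB types, 2 (416) between early buds, 3 (1719) between forelimb and 1 (533) between hindlimb stages, 2 (786) in BA, 0 (1454) in TB, 2 (913) for limb type by culture or embryo and 1 (701) for stage by limb type. Below an adjusted p of 0.001, 2 (998) passed between ES–LB types, 1 (1704) between hindlimb stages, 2 (1212) in BA and 1 (852) for stage by limb type. Over all genes it left 976 between early buds, 3530 in TB and 944 for limb type by culture or embryo. Fits of only the groups compared called 2 of the 10 between hindlimb stages and 3 in BA, and a filter of 5 CPM called 3 for limb type by culture or embryo. The smaller counts under the stricter thresholds follow from their construction. With the filter of 5 CPM, Inhbb was no longer among the genes tested, as no library held more than 2.46 CPM. Inhba then had adjusted p = 0.0562 for limb type by culture or embryo. For the fits of only the groups compared the cause was not tested.

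Directions turned only in differences not past the threshold. Between forelimb stages Tgfb1 was at 0.008405 with median-of-ratios scaling and at 0.163 with CPM as deposited. Between hindlimb stages Ltbp1 was at 0.05168 with CPM as deposited, and with the left-out library Inhbb was at 0.06448 and Tgfbr1 at -0.06164. For stage by limb type Tgfbr1 was at -0.03479 with median-of-ratios scaling, -0.1358 with CPM as deposited, -0.01215 with the replicate block and -0.08245 with the left-out library.

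Leaving out 1 library at a time, such differences ranged from -0.6134 to 0.211 for Inhbb in ES–FLB against early FLB, -0.144 to 0.00184 for Tgfbr2 between ES–LB types, and -0.1888 to 0.004004 for Inhba and -0.09929 to 0.2361 for Ltbp1 between early buds. Between forelimb stages they ranged from -0.1086 to 0.01726 for Tgfb1 and -0.06882 to 0.07356 for Tgfbr1, and between hindlimb stages from -0.5465 to 0.2264 for Inhbb, -0.1583 to 0.2021 for Tgfbr1 and -0.2226 to 0.1128 for Ltbp1. In BA they ranged from -0.2243 to 0.03344 for Tgfb1, -0.03075 to 0.1116 for Tgfbr1 and -0.01765 to 0.09158 for Tgfbr3, and for stage by limb type from -0.1791 to 0.1813 for Tgfbr1.

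The number of the 10 genes past the threshold stayed at 9 and at 10 in ES–FLB and ES–HLB against early buds whichever library was left out. It ranged from 7 to 9 in ES–HLB against E10.5 HLB, from 1 to 4 between hindlimb stages, from 2 to 5 in BA, from 5 to 6 in TB and from 3 to 5 for stage by limb type. Between hindlimb stages 3169 to 4527 of all genes passed, and between early buds 1950 to 2602.

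With CPM as deposited, the share of all calls that were higher moved from 46.1% to 62.75% in ES–FLB and from 46.2% to 61.3% in ES–HLB against early buds, from 48.0% to 59.3% in ES–HLB against E10.5 HLB, from 43.9% to 60.8% between early buds, from 40.2% to 66.6% between forelimb and 33.3% to 58.4% between hindlimb stages, where median-of-ratios scaling gave 43.5%. It moved from 56.9% to 44.8% for limb type by culture or embryo and from 57.7% to 26.3% for stage by limb type. With that scaling Tgfb2 rose between forelimb stages (0.48, adjusted p = 0.00301).

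The labels do not say whether same-numbered libraries of different groups share an embryo or a culture. Their deviations correlated at -0.0869 to 0.126 (median 0.017), with 3 of 100 pairs over 0.1. Those of libraries with different numbers correlated at -0.166 to 0.154 (median -0.010), with 2 of 200 pairs over 0.1. Such values cannot exclude a shared origin. With the replicate block, 9 of the 10 genes passed in ES–HLB against E10.5 HLB, since Tgfb1 was past the threshold (adjusted p = 0.0368), and 6 in BA, since Tgfbr2 was (adjusted p = 0.0245). The planned edgeR test on recovered reads was not run, because the deposited CPM did not give whole reads for nearly all genes of every library. Depth limits Inhba and Inhbb, whose values in limb buds lie at a few reads per library.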
